A study of Mus musculus with 2 samples.

Results

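The genes described here encode the matrix metalloproteinases (MMPs), the ADAMTS proteases and the tissue inhibitors of metalloproteinases (TIMPs). They were taken by symbol from the array annotation, with ADAMTS-like genes left out, which gave 37 genes on 70 probe sets of 18193 genes named on the array. Of these, 18 encode MMPs, 15 ADAMTS proteases and 4 TIMPs. RefSeq holds 9 further genes of these families (*Mmp15*, *Mmp21*, *Mmp25*, *Mmp27*, *Mmp28*, *Adamts2*, *Adamts13*, *Adamts14* and *Adamts17*), which were not analysed here.

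Both samples were femoral growth plate cartilage of E17.5 embryos lacking TRIC-B, a cation channel of the ER membrane encoded by *Tmem38b*, on a C57BL/6J and 129Sv strain background. An Affymetrix mouse genome array was hybridized with RNA of the round chondrocyte zone, and another with RNA of the columnar and hypertrophic zone. Since 3 RNA preparations were mixed for each array and a zone had a single array, differences between zones lack a replicate check and were not tested. Wild-type cartilage was not analysed here, and every value below describes knockout tissue.

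MMPs are zinc proteases, secreted or anchored in the cell membrane, that cleave collagens and other matrix proteins. ADAMTS proteases are secreted and bind matrix, and different members cleave aggrecan and versican, trim procollagen ends or process other matrix proteins. TIMPs bind the active site of MMPs, and TIMP3 also inhibits several ADAMTS proteases. In the growth plate, matrix is remodelled as chondrocytes enlarge, and MMP13 of late hypertrophic chondrocytes and MMP9 of invading cells are known for opening the cartilage to bone and vessels.

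The signals are linear, and a gene was read as above background when it exceeded a floor of 65.9, the 40th percentile of all signals. For each gene, the probe set of highest mean log2 signal stood for it, with signals under the floor raised to it first. Where all probe sets of a gene were under the floor in both zones, they tied and the first by identifier stood for it. Pairs of signals are given with the round zone first and the columnar/hypertrophic zone second. A difference is the log2 of the second signal over the first, so negative values mean a higher signal in the round zone. A signal under the floor was set to it, and such a difference is a bound. Above the floor in either zone were 23 of the 37 genes, against 70.1% of all named genes. The highest signal of any of the 37 genes was 11056, well below the top of the scale at 68899. Probe sets differ in how strongly they bind, and their signals do not rank the genes.

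*Tmem38b* was measured by 4 probe sets, with signals of 69.4 and 43.1, 266 and 275, 188 and 184, and 323 and 304. Whether they lie within the deleted part is not given in the sources used here, so they do not check the genotype. Zone markers mostly differed as the labels name the zones. *Col10a1*, the collagen gene of hypertrophic chondrocytes, had signals of 55.2 and 25421, and 4 of 5 markers of these cells were at least 2-fold higher in their zone. The exception was *Vegfa*, with 3095 and 1877. Of 8 markers of round or articular chondrocytes, 5 passed 2-fold toward the round zone, while *Sox9*, *Matn1* and *Sfrp5* differed by less than 1.5-fold. Of 11 measured marker genes of perichondrium, tendon and fibroblasts, 10 were compared, 7 were at least 2-fold higher in the round zone and none was so in the other. This list summed to signals of 87091 and 33983, *Thy1* lay under the floor in both, and *Dpt* and *Scx* in the latter. Fewer cells of a type and less RNA per cell cannot be told apart in such tissue RNA.

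**Figure D1:**
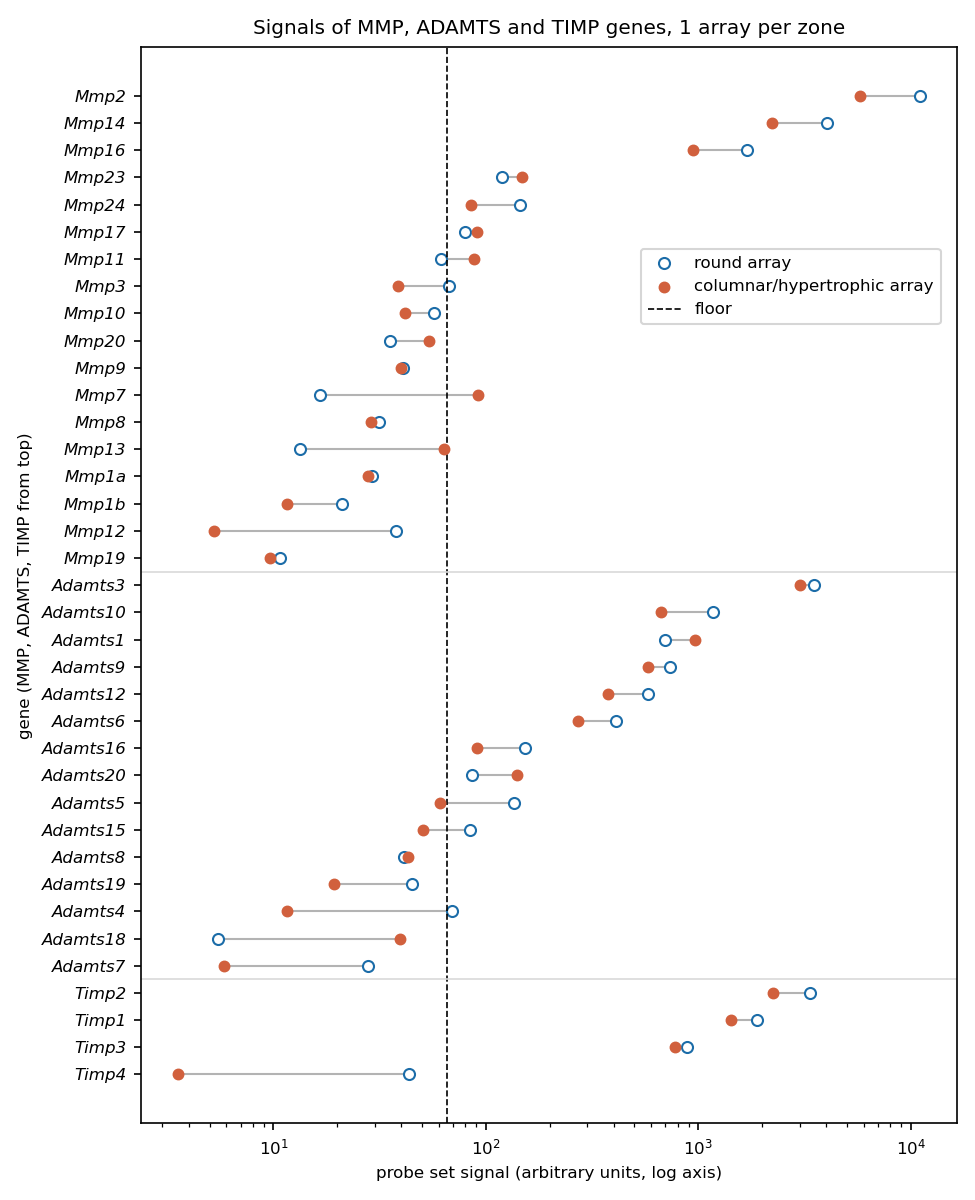
Signals (log axis, arbitrary units) of all 37 genes, each on the probe set that stands for it (the first by identifier where all lie under the floor), in the round zone (open) and in the columnar/hypertrophic one (filled), 1 array per zone, with the floor of 65.9 as a dashed line. *Mmp2*, *Mmp14* and *Mmp16* lie far right of the floor with the round zone higher, whereas *Mmp13* and *Mmp9* lie left of it in both zones.

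Expressed proteases and inhibitors of this set were mostly lower in the columnar/hypertrophic zone, by less than 2-fold. Of the 17 genes above the floor in both zones, 13 had a lower signal there and 4 (*Adamts1*, *Adamts20*, *Mmp17* and *Mmp23*) a higher one. Among all 11163 genes above the floor in both zones, 52.5% were lower there. The median difference of the 17 genes was -0.59, against -0.03 over the 11163. Medians over genes above the floor in both zones were added after the data were seen. Over all 23 compared genes, bounds included, 17 were lower there and 6 higher, with a median of -0.35. Among all 12761 compared genes, 6793 were lower there, and the median was -0.04. On the probe set that stands for it, each of the 17 genes kept its sign under 4 scalings, the deposited one included. These scalings changed most of the differences only slightly, so this is a weak check. *Adamts9*, *Adamts16*, *Timp3* and *Mmp23* each had another compared probe set of the opposite sign.

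By a 2-fold rule, 1 of the 23 compared genes (*Adamts5*, as a bound) was higher in the round zone, where 6.25% of all 12761 compared genes passed, and 0 were higher in the columnar/hypertrophic zone, where 4.28% passed. By a 1.5-fold rule, chosen after the values were seen, 10 were higher in the round zone, where 15.3% of all compared genes passed. These were *Mmp2*, *Mmp14*, *Mmp16*, *Mmp24*, *Adamts5*, *Adamts6*, *Adamts10*, *Adamts12*, *Adamts16* and *Timp2*. In the other direction *Adamts20* alone passed, where 10.4% of all compared genes did. After the other 3 scalings, 6 or 7 genes passed the 1.5-fold rule in the round direction, and 11.9% to 12.4% of all compared genes.

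**Figure D2:**
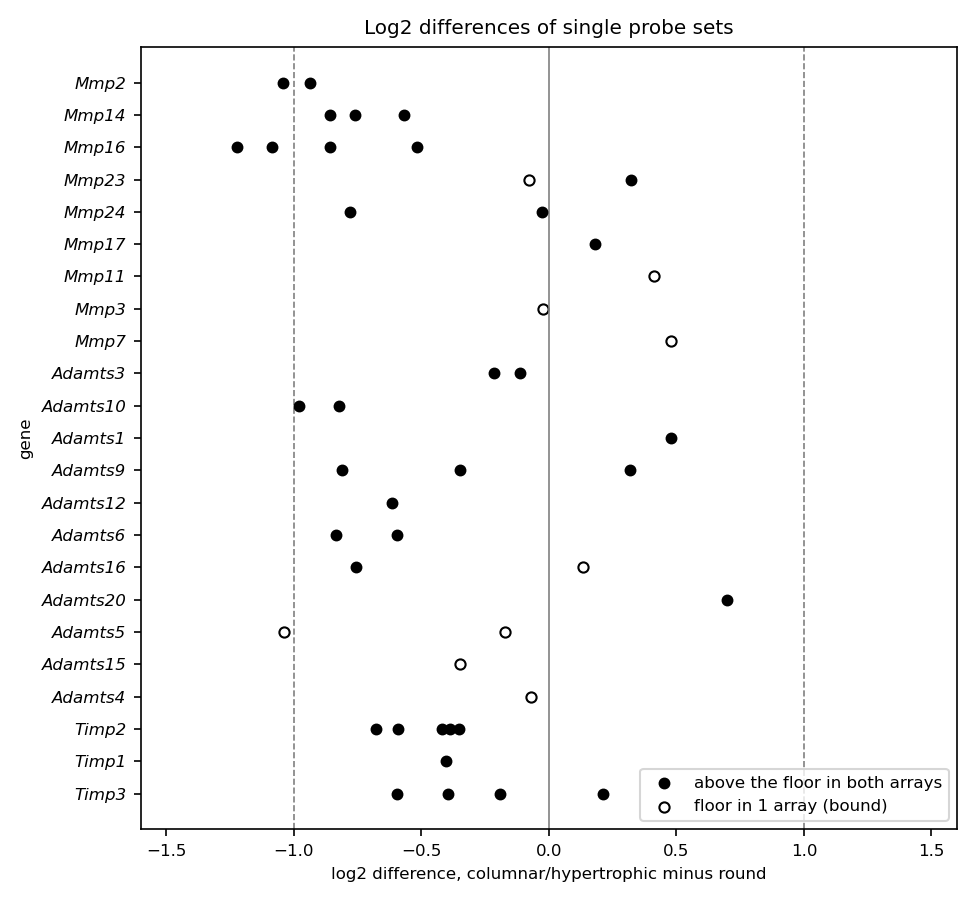
Log2 difference (columnar/hypertrophic minus round) of each compared probe set, by gene; filled points lie above the floor in both zones and open points are bounds. Dashed lines mark 2-fold, which probe sets of *Mmp2*, *Mmp16* and *Adamts5* pass on the round side and none passes on the other.

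The genes of the secreted collagenases, which cut triple-helical fibrillar collagen (*Mmp1a*, *Mmp1b*, *Mmp8* and *Mmp13*), were not above the floor in either zone. Each of these genes rests on a single probe set. *Mmp13*, whose product cleaves type II collagen, had signals of 13.3 and 63.4. The second lies just under the floor, at the 40.5th percentile of its array. Under a 20th-percentile floor, the signal of *Mmp13* in the columnar/hypertrophic zone would be at least 2.80-fold that in the round zone. After quantile normalization, which lifts its second signal over the floor, the bound was 0.03. The same zone held *Col10a1* at 25421, *Ibsp* at 526 and *Alpl* at 1859, all under the floor in the round zone, and *Mef2c* at 4732 against 1099. *Vegfa*, the remaining measured marker of hypertrophic chondrocytes, went the other way, with signals of 3095 and 1877. *Mmp8* had signals of 31.5 and 28.9, *Mmp1a* of 29.1 and 27.8, and *Mmp1b* of 21.0 and 11.6. *Mmp1a* and *Mmp1b* are close copies, whose transcripts an array may not separate.

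*Mmp2* encodes gelatinase A, which degrades denatured collagen and type IV collagen. Its signals were 11056 and 5777 on one probe set, and 9787 and 4750 on the other. The differences were -0.94 and -1.04, or 1.91-fold and 2.06-fold, so its probe sets lie on either side of the 2-fold rule. After quantile normalization and after lowess centring the first was -1.09. *Mmp9* encodes gelatinase B, which osteoclasts and other invading cells secrete. It had signals of 40.6 and 39.95 on one probe set and 50.6 and 23.7 on the other, under the floor in both zones. Of 10 markers of osteoclasts and myeloid cells, 6 were under the floor in both zones, *Acp5*, *Calcr*, *Ocstamp* and *Dcstamp* among them. The myeloid markers *Csf1r* (91.0 and 161) and *Lyz2* (100 and 139) were above it in both zones, and *Cd68* (102 and 63.4) in the round zone only. The 10 markers summed to 1630 and 1889, mostly *Ctsk* at 1231 and 1385, a gene that is not limited to osteoclasts.

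The 4 measured membrane-type MMP genes were above the floor in both zones. *Mmp14* encodes MT1-MMP, a collagenase of the cell surface that activates pro-MMP2 in a complex with TIMP2. Its signals were 4022 and 2220, and its 3 probe sets gave -0.86, -0.76 and -0.57. *Mmp16* encodes MT3-MMP, also able to activate pro-MMP2. It had signals of 1705 and 940, and differences from -1.22 to -0.52 over 4 probe sets, of which 2 passed 2-fold. Every probe set of *Mmp2*, *Mmp14* and *Mmp16* was therefore lower in the columnar/hypertrophic zone. *Mmp24*, encoding MT5-MMP, had signals of 145 and 84.8 with a difference of -0.78, but its other compared probe set gave -0.03. *Mmp17*, encoding the lipid-anchored MT4-MMP, had signals of 79.9 and 90.7, both near the floor.

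Stromelysins, matrilysin and the remaining MMPs lay near or under the floor. *Mmp3*, encoding stromelysin-1, had signals of 67.0 and 38.7. *Mmp11*, encoding stromelysin-3, had 61.4 and 87.7, and *Mmp7*, the matrilysin gene, 16.5 and 91.9. The bounds were -0.02, 0.41 and 0.48, and all 3 genes exceeded the floor in 1 array by less than 1.5-fold. With a 20th-percentile floor the bound of *Mmp7* became 2.02, past 2-fold, and the difference of *Mmp3* became -0.79. *Mmp23* had signals of 119 and 148 with a difference of 0.32, and a bound of -0.08 on its second probe set. *Mmp10*, *Mmp12*, *Mmp19* and *Mmp20* were under the floor in both zones, with signals from 3.02 to 57.1. The median difference of the 9 compared MMP genes was -0.02, the bound of *Mmp3*, and that of the 6 MMP genes above the floor in both zones was -0.82. The median over all compared genes was -0.04. The MMP median over 9 genes turned to 0.07 and 0.03 after centring on the median difference and quantile normalization, so it sets no direction.

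In the mouse genome (GRCm38.p6, RefSeq) 10 MMP genes follow each other on chromosome 9 with no other protein-coding gene between them, in the order *Mmp13*, *Mmp12*, *Mmp1b*, *Mmp3*, *Mmp1a*, *Mmp10*, *Mmp8*, *Mmp27*, *Mmp20* and *Mmp7*. Of the 9 measured, each on a single probe set, 2 (*Mmp3* and *Mmp7*) exceeded the floor in either zone, against 70.1% of all named genes. The highest signal of the run was 91.9. *Mmp2*, *Mmp14* and *Mmp16* lie elsewhere. The promoters of 4 genes are shown to set *Mmp13*, at the edge of background, beside genes above the floor in both zones. *Mmp14* and *Timp1* were lower in the columnar/hypertrophic zone and *Adamts1* was higher there. The sequences are the 250 bases before the RefSeq transcription start, 5′ to 3′ on the strand of the gene, at chr9:7272264-7272513 (plus strand), chr14:54431348-54431597 (plus), chrX:20869916-20870165 (plus) and chr16:85803114-85803363 (minus). Capitals mark the AP-1 motif (TGANTCA), the RUNX motif (TGTGGT or its complement ACCACA) and the GC box (GGGCGG or CCGCCC), searched on both strands.
Mmp13: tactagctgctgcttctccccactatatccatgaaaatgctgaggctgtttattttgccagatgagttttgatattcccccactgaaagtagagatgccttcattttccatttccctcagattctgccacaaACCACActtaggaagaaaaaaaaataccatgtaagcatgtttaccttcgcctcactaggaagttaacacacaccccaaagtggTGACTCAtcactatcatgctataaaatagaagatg
Mmp14: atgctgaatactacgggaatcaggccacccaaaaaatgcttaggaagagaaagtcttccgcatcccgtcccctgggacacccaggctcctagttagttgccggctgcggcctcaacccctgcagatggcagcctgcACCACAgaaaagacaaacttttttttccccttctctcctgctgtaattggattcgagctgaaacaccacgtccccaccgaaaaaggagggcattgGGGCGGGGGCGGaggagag
Timp1: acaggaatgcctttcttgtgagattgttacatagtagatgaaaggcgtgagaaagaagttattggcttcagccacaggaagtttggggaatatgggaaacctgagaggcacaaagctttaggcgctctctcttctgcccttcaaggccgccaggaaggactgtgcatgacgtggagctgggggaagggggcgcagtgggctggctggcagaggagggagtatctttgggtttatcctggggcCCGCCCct
Adamts1: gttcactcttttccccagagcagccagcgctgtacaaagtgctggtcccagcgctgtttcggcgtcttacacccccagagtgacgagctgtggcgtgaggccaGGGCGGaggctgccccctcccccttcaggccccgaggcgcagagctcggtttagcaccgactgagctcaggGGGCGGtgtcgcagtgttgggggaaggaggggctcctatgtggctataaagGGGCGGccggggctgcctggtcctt

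The *Mmp13* promoter held an AP-1 motif that begins 35 bases before the start and a RUNX motif 118 bases before it. AP-1 and RUNX2 are known regulators of this gene. The *Mmp14* promoter held a RUNX motif 114 bases before the start and GC boxes at 19 and 13 bases. Those of *Timp1* and *Adamts1* held GC boxes only, 1 and 3 of them, respectively. RefSeq promoters were at hand for 23 of the 37 genes, and *Mmp2*, *Mmp16*, *Mmp9* and *Adamts5* were not among these. An AP-1 motif was in those of 8 genes, all in the run on chromosome 9 where 9 genes had a promoter, and none of the 8 was above the floor in both zones. Of the 11 genes above the floor in both zones with a promoter, 9 held a GC box and 0 an AP-1 motif. None of these 11 lies in the run. A GC box was in 0 of the 9 genes of the run and in 11 of the 14 others. Signal and place in the run thus overlap, and their parts cannot be told apart here. Of all 32851 promoter windows of this length, 6.75% held the AP-1 motif, 14.05% the RUNX motif and 32.7% the GC box. These shares count windows, not filtered by signal, whereas a gene above counted if any of its windows held the motif, so they are not directly comparable. A match of letters is a description and not a binding site.

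**Figure D3:**
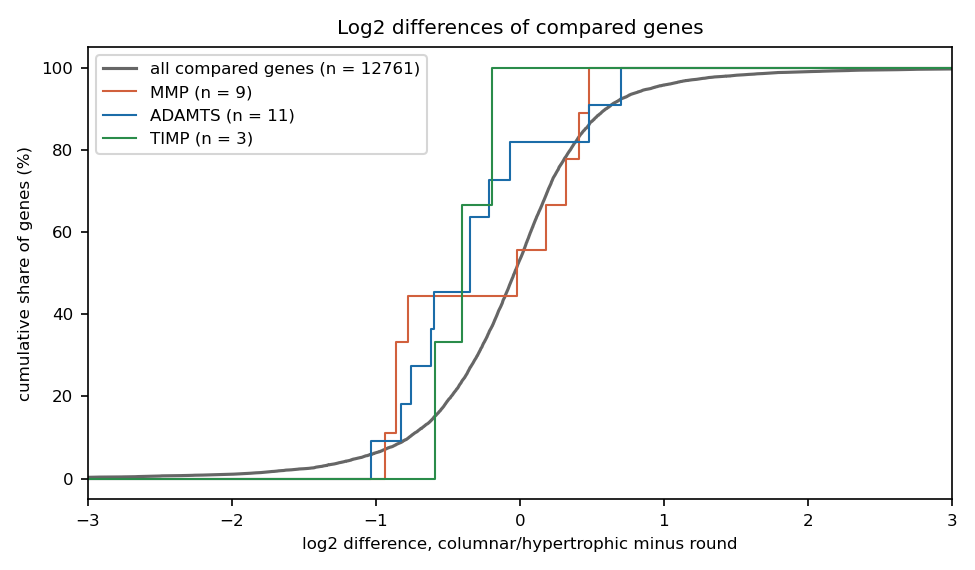
Cumulative share (%) of genes by log2 difference (columnar/hypertrophic minus round) for all 12761 compared genes and for 9 MMP, 11 ADAMTS and 3 TIMP genes, bounds included, drawn from -3 to 3. The ADAMTS and TIMP curves lie left of the curve of all genes over most of their range, with medians of -0.35 and -0.40 against -0.04.

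Among the ADAMTS proteases that cleave aggrecan or versican, the known cartilage aggrecanases gave weak signals. *Adamts5*, encoding the main aggrecanase of mouse cartilage, had its highest signals, 135 and 60.7, on the same probe set. This gave a bound of -1.04, or at least 2.05-fold. A second probe set had signals of 74.3 and 21.1 with a bound of -0.17, and the remaining 2 were under the floor in both zones. After the other scalings the bound of *Adamts5* lay between -0.95 and -0.92, under 2-fold. *Adamts4*, encoding the other well-known aggrecanase, had signals of 69.2 and 11.6 on one probe set and 41.8 and 8.82 on the other. Its bound of -0.07 became -1.61 with the floor at the 20th percentile. *Acan*, the aggrecan gene that both proteases act on, had signals of 34757 and 39969.

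*Adamts1*, encoding a protease of versican and aggrecan, differed in direction. Its single probe set had signals of 694 and 968, a difference of 0.48. *Adamts9*, a versican-cleaving member, had signals of 737 and 579, but over 3 probe sets it gave -0.81, -0.35 and 0.32, so its direction is not settled. *Adamts20*, the closest relative of *Adamts9*, had signals of 86.2 and 140 with a difference of 0.70. *Adamts15* had signals of 84.0 and 50.4, a bound of -0.35 that became -0.74 with a 20th-percentile floor, and *Adamts8* was under the floor at 41.3 and 42.9. *Vcan*, the versican gene, had signals of 3418 and 219 and a difference of -3.97 on its representative probe set, and differences from -4.03 to -0.09 over 4 probe sets.

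Of the ADAMTS proteases that act on procollagen, *Adamts3*, which removes the amino-terminal propeptide of type II procollagen, was measured. It had signals of 3505 and 3017 on one probe set and 173 and 160 on the other, with differences of -0.22 and -0.11. *Col2a1*, the gene of that procollagen, had signals of 49311 and 50518, near the top of the scale. *Bmp1*, encoding the enzyme that removes the other propeptide, had signals of 605 and 400.

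Other ADAMTS genes above the floor were lower in the columnar/hypertrophic zone on the probe set that stood for them. *Adamts10*, whose product binds fibrillin microfibrils, had signals of 1178 and 665 with a difference of -0.82, and -0.98 on its second probe set. *Adamts6*, the closest relative of *Adamts10*, had signals of 411 and 272, with differences of -0.60 and -0.83 on 2 probe sets. *Adamts12*, which cleaves the cartilage protein COMP, had signals of 577 and 377 with a difference of -0.61. *Adamts7*, another protease of COMP, was under the floor at 27.99 and 5.83. *Adamts16* gave -0.76 on one probe set, with signals of 153 and 90.7, and a bound of 0.14 on the other. *Adamts18* and *Adamts19* were under the floor in both zones, with signals from 2.54 to 44.9. The median difference of the 11 compared ADAMTS genes was -0.35, and -0.47 over the 8 above the floor in both zones.

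The inhibitor genes above the floor were *Timp1*, *Timp2* and *Timp3*. *Timp2*, whose product inhibits MMPs and takes part in MMP2 activation, had signals of 3369 and 2238. Its 5 compared probe sets gave differences from -0.68 to -0.35. *Timp1*, encoding a soluble MMP inhibitor, had signals of 1890 and 1428 on its single probe set, a difference of -0.40. *Timp3*, whose product stays bound to matrix, had signals of 887 and 778. Its 4 probe sets gave -0.60, -0.40, -0.19 and 0.21, which lie on both sides of 0. *Timp4* was under the floor in both zones, with signals from 3.55 to 51.1 over 2 probe sets. No TIMP gene reached 2-fold, and the median over the 3 compared was -0.40.

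The spread between probe sets of one gene is the only error at hand, and it holds no variation between embryos. Its pooled SD in the log2 difference was 0.30 over 10 genes of these families with several probe sets above the floor in both zones, and 0.34 over 5446 genes of the whole array. In 8 of the 10 genes all these probe sets were lower in the columnar/hypertrophic zone, and *Adamts9* and *Timp3* had probe sets of both signs. With bounds counted, *Adamts16* (-0.76 and 0.14) and *Mmp23* (0.32 and -0.08) also had both signs. The share of all genes whose probe sets agree in sign was not computed. On the probe set that stood for them, *Timp1*, *Timp3*, *Adamts3*, *Adamts9*, *Mmp17* and *Mmp23* had differences within 1.5 times the first SD. The other 11 genes above the floor in both zones differed by more. With the SD of the whole array, *Adamts1* at 0.48 also falls within. By the mean over probe sets, *Adamts16* (-0.31) and *Mmp24* (-0.40) fall within under either SD. The cutoff is descriptive and tests no difference. The perichondrium, tendon and fibroblast markers had a median of -2.05, the same direction as *Mmp2*, *Mmp14*, *Mmp16* and *Timp2*. Not all moved, as *Lum* had signals of 21458 and 22176, a difference of 0.05. The part of these markers in the differences of the proteases and *Timp2* was not tested. Endothelial markers had summed signals of 474 and 343, with 5 of 7 compared, 1 of them (*Esam*, as a bound) at least 2-fold higher in the round zone.

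**Figure D4:**
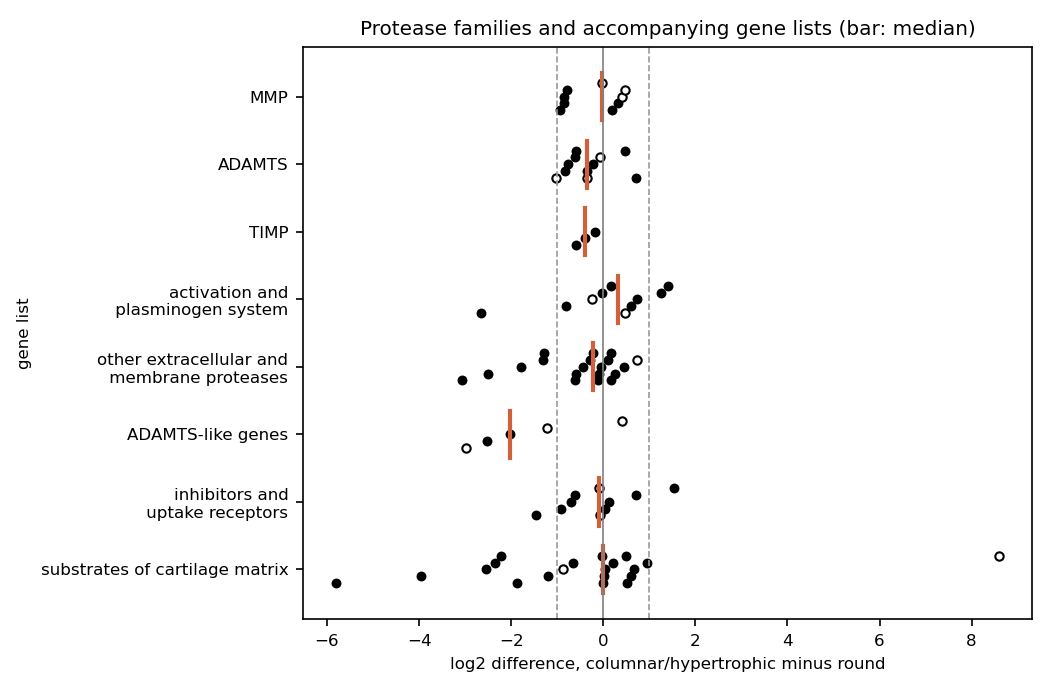
Log2 difference (columnar/hypertrophic minus round) of compared genes in the 3 families and in 5 accompanying lists; filled points lie above the floor in both zones, open points are bounds, orange bars are medians and dashed lines mark 2-fold. Apart from *Adamts5* at -1.04, the MMP, ADAMTS and TIMP genes lie within the 2-fold lines, while the ADAMTS-like genes have a median of -2.03.

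Genes that work with these proteases included members past 2-fold in both directions. Of 10 compared genes of activation and the plasminogen system, 2 passed 2-fold toward the columnar/hypertrophic zone and 1 toward the round zone. The median was 0.32. *Pcsk6*, encoding the convertase PACE4 that can activate ADAMTS proenzymes, had signals of 394 and 1049. *Pcsk5*, a related convertase gene, had signals of 525 and 83.1 and differences of -2.66 and -1.77 on its 2 probe sets. *Furin*, the best-known convertase of membrane-type MMPs, had signals of 1354 and 2235, a difference of 0.72 on 1 probe set. *Serpinf2*, encoding the plasmin inhibitor α2-antiplasmin, had 127 and 72.7, a difference of -0.80. *Plaur*, the urokinase receptor gene, had 144 and 344, while *Plau*, the urokinase gene itself, was under the floor.

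ADAMTS-like genes encode relatives that have lost the protease domain and lie in the matrix, several of them with fibrillin. Of 5 compared, 4 passed 2-fold toward the round zone. *Adamtsl4* had signals of 672 and 116, and *Thsd4*, also known as *Adamtsl6*, 777 and 190. *Adamtsl3* had 518 and 60.5, at least 7.86-fold, and *Adamtsl2* 155 and 13.8, at least 2.35-fold. *Adamtsl2*, *Adamtsl3* and *Adamtsl4* rest on a single probe set each, and the second of *Thsd4* gave -0.78.

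Other proteases of the cell surface and matrix had 5 of 19 compared genes past 2-fold toward the round zone and 0 toward the other. *Fap*, a serine protease gene of activated fibroblasts, had signals of 1214 and 144. *Pappa2* and *Pappa*, encoding proteases of IGF-binding proteins, had 1508 and 268, and 307 and 126, respectively. *Adam12*, encoding a membrane-bound metalloprotease with a disintegrin domain, had 1329 and 386, and its 2 probe sets gave -1.78 and -1.64. *Ctsl*, encoding a lysosomal cathepsin, had 11106 and 4473. The sheddase genes *Adam10* and *Adam17* gave -0.09 and 0.11 on their representative probe sets.

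Inhibitors and uptake receptors outside the TIMP family had a median of -0.09 over 10 compared genes. *A2m*, encoding the broad protease trap α2-macroglobulin, had signals of 9610 and 3509, a 2.74-fold higher signal in the round zone. *Lrp8*, encoding an apolipoprotein E receptor, had signals of 266 and 768 and was higher in the columnar/hypertrophic zone on all 3 probe sets. *Reck*, encoding a membrane-anchored inhibitor of MMP2 and MMP14, had 4329 and 2294, a difference of -0.92, close to that of *Mmp2*. *Mrc2*, the receptor gene for uptake of collagen fragments, had 5668 and 3474. Of 20 genes for cartilage matrix proteins that can be cleaved, 7 passed 2-fold toward the round zone and 1, *Col10a1*, toward the other, with a median of -0.01. The 7 included *Prg4*, the lubricin gene of the joint surface, with 5260 and 94.1, *Col3a1*, a fibrillar collagen gene, with 30420 and 5232, and *Dcn*, the decorin gene, with 25968 and 5083.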

How the data were processed

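Gene expression was measured on 2 Affymetrix arrays, 1 for each zone of Tric-b-knockout cartilage. The authors deposited linear intensities per probe set. MAS5 is named by the submitters' processing notes without a version, whereas the methods give robust multiarray analysis, which yields log values, for the array intensities. Trimmed means (2% off each end) were 497 for the round and 496 for the columnar/hypertrophic zone, and nothing was rescaled. Above the floor were 27596 and 26448 of 45037 probe sets.

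A probe set took its gene from GEO's platform annotation when this gave 1 symbol. The floor was the 40th percentile of both arrays together, and signals under it were raised to it before log2. A single array per zone allows no test. The number of arrays limits the precision. The members, gene lists and size rules were chosen with earlier results of these data known. Genes named by rule were those passing 2-fold on any probe set, the 4 TIMP genes, *Mmp2*, *Mmp9*, *Mmp13*, *Mmp14*, *Adamts1*, *Adamts4*, *Adamts5* and the 10 with the highest mean signal. Other members were named to account for all 37. The accompanying lists, described for contrast, gave up to 4 genes by rule, ranked by size among those above the floor in both zones. *Furin*, *Plau*, *Pappa*, *Adamtsl2*, *Adamtsl3*, *Adam10*, *Adam17*, *Acan*, *Col2a1* and *Bmp1* were chosen after their values were seen. Marker lists of round or articular, columnar and prehypertrophic chondrocytes, osteoblasts, skeletal muscle and erythroid cells had medians of -1.77, 1.20, 0.84, 0.72 and -0.35 over 8, 8, 6, 4 and 1 compared genes. The hypertrophic, osteoclast and myeloid, and endothelial lists had 3.00, 0.32 and -0.41.

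Tried as well were 3 other scalings (centring on the median difference, quantile normalization or lowess), a floor at the 20th or 60th percentile or none, averaging probe sets, leaving out probe sets ending in _x_at or _s_at, and a 3-fold rule. A 1.5-fold rule and medians over genes above the floor in both arrays were added after the data were seen. The steps were tested on simulated data, with changes larger than 2-fold planted in probe sets well above the floor. That test does not cover smaller differences or signals near the floor. Versions were pandas 2.3.3 and numpy 2.4.6 in Python 3.11.15, with statsmodels 0.14.6 for lowess and matplotlib 3.10.9 for plots. Promoters came from RefSeq (GRCm38.p6).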

Additional observations from a re-analysis of the deposited data

How the results depend on the processing

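No paired analysis was possible because a single array stood for each zone. The floor decides which weak genes are compared. Against the main settings, 54 values and counts of the comparisons stayed within the tolerance and 22 moved, and no called value turned its sign. The tolerance was the pooled SD of 0.34 for log2 differences and 1.5 times for counts. Stricter or looser rules change counts by construction, and for the other settings the cause was not tested. For the 23 compared genes of the 3 families, 177 single values kept to the tolerance and 11 moved. With a 20th-percentile floor and with none, *Adamts4* moved from -0.07 to -1.61 and -2.57, *Mmp7* from 0.48 to 2.02 and 2.47, *Mmp3* from -0.02 to -0.79 in both and *Adamts15* from -0.35 to -0.74 in both. With the mean over probe sets, *Adamts5* moved to -0.61, *Adamts16* to -0.31 and *Mmp24* to -0.40. Centring on the median difference turned the bounds of *Adamts4* and *Mmp3* to 0.02 and 0.07. *Mmp13*, not compared as deposited, had 1.48 and 2.25 with these lower floors.

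Of the 3 families, 1 of 23 compared genes (*Adamts5*) passed 2-fold toward the round zone as deposited, and 0 after centring on the median difference, with a 60th-percentile floor, with the mean over probe sets and with the 3-fold rule. A 20th-percentile floor gave 2 of 35 (*Adamts4* and *Adamts5*), or 5.71% against 9.32% of all compared genes. No floor gave 5 of 37, or 13.5% against 13.8%, and the 1.5-fold rule 10 of 23, or 43.5% against 15.3%. After quantile normalization and lowess centring the single gene was *Mmp2* in place of *Adamts5*. Toward the columnar/hypertrophic zone there were 0 as deposited and 1 with the 1.5-fold rule, or 4.35% against 10.4%. A 20th-percentile floor gave 2 (*Mmp7* and *Mmp13*), or 5.71% against 6.46%, and no floor the same 2, or 5.41% against 10.6%. The MMP median moved from -0.02 to -0.86 with a 60th-percentile floor, where 3 genes were compared, and to -0.82 over genes above the floor in both zones.

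Among all compared genes, 798 passed 2-fold toward the round zone and 546 toward the other as deposited. The other scalings gave nearly even counts, 668 and 653 after centring on the median difference, 638 and 645 after quantile normalization, and 636 and 637 after lowess centring. The excess toward the round zone over all genes thus depends on the scaling. The counts were 1519 and 1053 of 16304 genes with a 20th-percentile floor, 407 and 347 of 9704 with a 60th-percentile floor and 2518 and 1935 of 18188 with no floor. The 3-fold rule gave 271 and 214 of 12761, and the 1.5-fold rule 1953 and 1331.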
